A study of Mus musculus with 8 samples.

Results

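The transcripts of the C57BL/6 (B6) allele were compared with those of the Mus musculus castaneus (cast) allele inside the same embryos. The embryos were single blastocysts at embryonic day 3.5, taken after natural mating without culture. In the 3 embryos of the forward cross the mother was B6 and the father cast, and in the 5 embryos of the reverse cross the mother was cast and the father B6. All embryos were wild-type F1 hybrids, and no pure-strain embryo was part of the comparison. Each embryo gave a B6 count and a cast count per gene, that is, reads that covered a base differing between the strains. Every tested gene was a member of the comparison: of the 22810 genes in the table, 12565 autosomal ones reached 10 reads in any of the 16 allele libraries (2 per embryo). The remaining genes were 645 on the X chromosome, 1113 without an assigned chromosome and 8487 autosomal genes below the read minimum. At the edge of that minimum, 408 genes had a highest allele count of 10 and were kept, with a median of 31 reads over all embryos, and 424 genes with a highest count of 9 and a median of 27 reads were left out.

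In an F1 hybrid both alleles share a nucleus and its regulatory proteins. Reads that are unequal between the alleles in the same direction in both reciprocal crosses therefore follow the strain of the allele. Reads that follow the parent change strain between the crosses. The reads were aligned to a B6-derived genome, and cast reads lost in alignment would also follow the strain in both crosses. That effect was not measured here. A strain difference in expression itself acts through sequence near or in the gene (a cis difference). Such cis differences arise in promoters, enhancers, splice sites and transcript stability, and the blastocyst adds a mixture of trophectoderm, epiblast and primitive endoderm cells to each sample. In bulk RNA of an embryo, fewer cells of a type and less RNA per cell cannot be told apart for the total level of a gene. Both alleles of an embryo were read from the same cells, so they are compared at the same cell numbers. Whether the alleles differed more in some cell types than in others was not tested. In the text, the B6 share is the percentage of a gene's allele-specific reads that came from the B6 allele, and a log2 fold change is the B6 over the cast level with the parent of the allele as a further term. Where shares are listed by embryo, the 3 forward embryos come first and then the 5 reverse embryos, each in order of replicate number. Strain-biased genes are those whose Benjamini-Hochberg adjusted p from edgeR's quasi-likelihood method did not exceed 0.1. SE here is the absolute log2 fold change divided by the square root of that test's F statistic. It was worked back from the test, is not a standard error given by the model, and may be too small where an allele has few reads.

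The embryos held between 1060063 and 1632695 allele-specific reads. The B6 share of all reads lay above 50% in every embryo and was narrow, from 57.4% to 58.3%. Among 5608 genes with at least 20 reads in each embryo the median gene had a B6 share of 55.1% to 56.8%. Because library sizes were scaled for each allele, log2 fold changes are relative to that typical gene. Trophectoderm, epiblast and primitive endoderm markers had reads in every embryo for 9 of 10, 7 of 8 and 6 of 8 listed genes, so all lineages of the blastocyst were represented. Summed over 5 of 8 listed genes, markers of cumulus cells, oviduct or uterus gave 5 to 27 reads per embryo. Replicate 1 of the reverse cross stood apart: 20.2% of the well-covered genes had a B6 share more than 20 points from the mean of the other reverse embryos, against 8.18% to 8.63% in the other 7 embryos.

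Of the 12565 genes, 1945 were strain-biased, which is 15.5% of those tested. Higher levels from the B6 allele were called for 1386 genes (11.0%) and from the cast allele for 559 genes (4.45%), so 71.3% of the calls were toward B6. When the 2 alleles of an embryo were treated as a pair (the embryo term), 3207 genes passed (25.5%), 1989 toward B6 (15.8%) and 1218 toward cast (9.69%). Without replicate 1 of the reverse cross, 2453 genes passed, 1630 toward B6 and 823 toward cast. Without replicate 1 of the forward cross, 1206 genes passed, 918 toward B6 and 288 toward cast. The split depended on the scaling: when the alleles of an embryo shared a library size, the median log2 fold change of all genes moved from 0.06 to 0.39 and 87.4% of the calls were toward B6, 2291 against 329.

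The sizes also differed between the directions. The median log2 fold change was 2.95 among genes called toward B6, or 2.86 with the 220 of them that had no cast read set to a bound of 3 reads, and -1.68 among those called toward cast by either count. Among the well-covered genes, 87 had a pooled B6 share of at least 95% and 7 had a share below 5%, and all of these were called. No gene with a pooled share from 50% to under 65% was called among the 3270 in that range. The next ranges up held 682 genes from 65% to under 80%, of which 304 were called, and 166 genes from 80% to under 95%, of which 163 were called. Below 50%, 164 of 1251 genes from 35% to under 50% were called, and 115 of 124 from 20% to under 35%. The share was above 50% in all 8 embryos for 506 of the 554 well-covered genes called toward B6, and below 50% in all 8 for 143 of the 306 called toward cast. These 2 counts are not comparable. The median gene had a share of 55.1% to 56.8%, so a cut at 50% is stricter for calls toward cast.

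**Figure D1:**
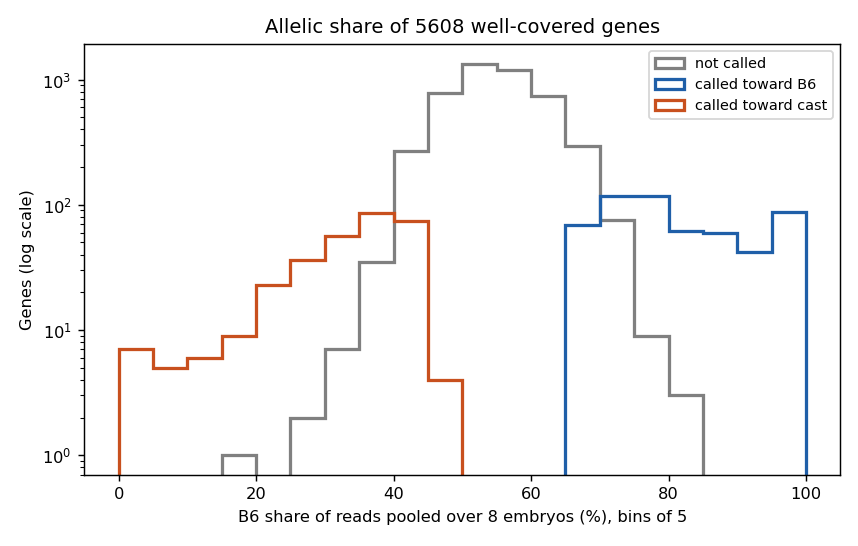
The number of genes (log scale) is plotted against the B6 share of reads pooled over 8 embryos, in bins of 5 points, for the 5608 genes with at least 20 reads in each embryo. Grey, blue and orange outlines are genes not called, called toward B6 and called toward cast, and the blue outline rises again in the last bin, where all 87 genes were called.

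The crosses were also fitted separately, which asks whether a difference keeps its direction when the mother's strain is exchanged. The forward cross alone gave 1751 calls (13.9%) and the reverse cross alone 1585 (12.6%). The 789 genes called in both made up 45.1% of the forward calls and 49.8% of the reverse calls, and 692 of them had the same direction. Of the 1945 strain-biased genes, 1887 (97.0%) had the same sign in both crosses, as did 59.5% of the tested genes that were not called, although the joint fit used these same embryos. Across the 5608 well-covered genes, the forward and reverse log2 fold changes had a Pearson correlation of 0.61, a description over genes that share their libraries. A parent term was called as well in 47 of the 1945 strain-biased genes, and in 179 of all 12565 tested genes.

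**Figure D2:**
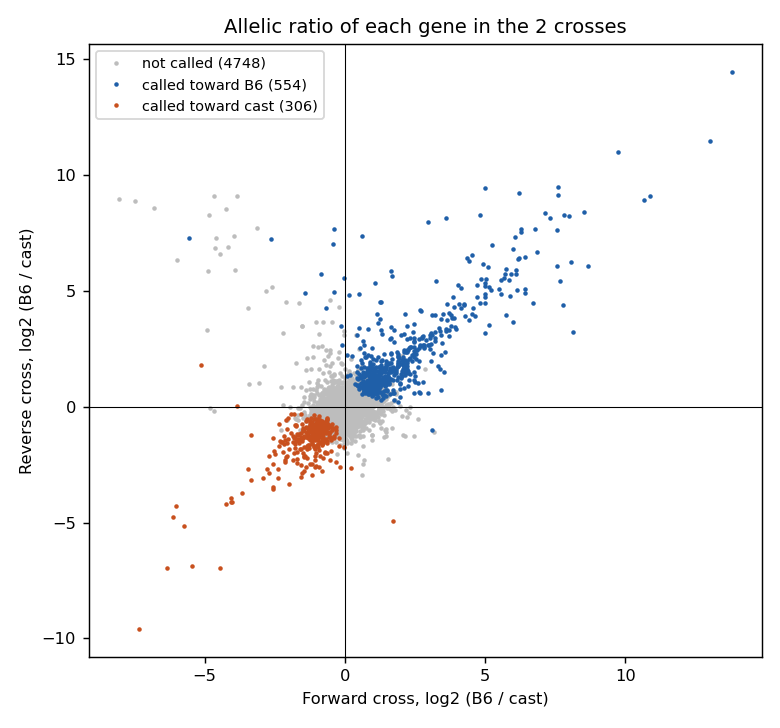
Each point is 1 of 5608 genes with at least 20 reads in each embryo, with the log2 ratio of B6 over cast reads in the forward cross (3 embryos) on the x axis and in the reverse cross (5 embryos) on the y axis. The 554 genes called toward B6 lie mostly in the upper right and the 306 called toward cast mostly in the lower left, and the points at the upper left follow the paternal allele.

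The largest differences toward B6 were near-complete. Myo7a, an unconventional myosin known from sensory hair cells (chr7:98051060-98119524 in mm10, minus strand), had 2541, 1575 and 1870 B6 reads in the forward embryos and 1842, 5856, 3861, 2384 and 1899 in the reverse embryos. Its cast count was 0 in all 8, so its B6 reads were at least 7276-fold more numerous when 3 reads over all embryos are taken as the floor for a count of 0. The test gave an edgeR adjusted p of 6.5e-11. Abcb4, which moves phospholipids across membranes into bile (382 B6 reads), and the noncoding Gm33901 (320 B6 reads) were likewise at 0 from cast in every embryo, at least 127-fold and 107-fold.

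Only 1 cast read in all was found for another 4 of the 10 largest in this ranking, among them the miRNA locus described next. Hist1h2ac, a core histone H2A gene (chr13:23681467-23683948), had 8720 B6 reads to 1 cast read, a ratio with an exact 95% counting interval of 1565 to 344461. Tspan12, a tetraspanin (chr6:21771395-21852515), had 1919 to 1, with an interval of 344 to 75835. The lincRNA Gm40271 had 822 to 1. Wdr83os, with 980 B6 and 2 cast reads, Tma7, a factor of the translation machinery, with 3041 and 7, and the Rpl37 retrogene Rpl37rt, with 5662 and 5, completed the 10 largest with Mir6236. These 10 were above a B6 share of 98% in each embryo, in both crosses.

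Mir6236 (chr9:110281287-110281409) had 2837 B6 reads and 1 cast read. A second miRNA locus was chosen after its values were seen: Mir703 (chr5:98475556-98475664, minus strand) had B6 shares of 99, 99.5 and 99.5% in the forward and 99.5, 99.7, 99.7, 99.7 and 99.7% in the reverse embryos (log2 fold change 7.24, SE 0.32, edgeR adjusted p = 3.5e-13). The mature sequences from RefSeq (GRCm38.p6) are shown because a polyA-primed library reads transcripts that run through such a locus, not the mature miRNA, with the seed (bases 2 to 8) in capitals.
mmu-miR-6236: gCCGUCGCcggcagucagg
mmu-miR-703: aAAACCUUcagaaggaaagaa
The Mir703 hairpin of 109 bases is 98.2% identical to a stretch of the Eef1a1 transcript, the translation elongation factor, which had B6 shares of 96.2% to 99.7%, median 99.4% (log2 fold change 6.71, SE 0.42, edgeR adjusted p = 5.3e-11). Reads that belong to either locus could be split between them, so the Mir703 value is uncertain. Mir6236 was not compared with other transcripts, because its hairpin sequence was not available.

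By the same ranking, the 10 genes with the largest change toward cast were led by Syt14. The other 9 had log2 fold changes of -6.70 (Fam83a) to -4.02 (Slc28a1). Syt14, a synaptotagmin (chr1:192891233-193035775), had 137, 84 and 95 cast reads in the forward embryos and 33, 93, 127, 95 and 62 in the reverse embryos, with 2 B6 reads in total. That is a ratio of 363 with an exact 95% counting interval of 100 to 3003. Pyy, the gut hormone peptide YY (chr11:102106676-102107832), was the most heavily read of them, with 8695 cast and 122 B6 reads. Its B6 share was 0.701, 4.89 and 0.800% in the forward and 0, 0, 1.19, 0.334 and 1.89% in the reverse embryos (log2 fold change -6.13, SE 0.88, edgeR adjusted p = 2.7e-05). Every embryo was thus below 5%, although the cast count itself ranged from 196 to 3331.

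The B6 share of Fam83a was 0% to 2.70%, median 0.980% and that of the lincRNA Gm33843 0% to 6.80%, median 1.32%. H2-K2, annotated as a transcribed pseudogene of the class I major histocompatibility genes, had a B6 share of 0% to 9.30%, median 1.77% (log2 fold change -5.35, SE 0.56, edgeR adjusted p = 3.1e-07). Rsph1, a radial spoke protein of motile cilia, had 0% to 14.3%, median 4.10%, and Slc28a1, a concentrative nucleoside transporter, 0% to 31.6%, median 5.53%. Nxpe4, Tmem141 and Rpl28, a protein of the large ribosomal subunit, completed the list with log2 fold changes of -5.08 ± 0.58, -4.10 ± 0.71 and -4.09 ± 0.51 (SE). The highest share among these cast-leaning genes was the 31.6% of Slc28a1 in replicate 1 of the reverse cross.

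Genes with many reads showed how tightly an allelic share could repeat between embryos. Dppa3, a maternal and early embryonic factor that guards DNA methylation (chr6:122626410-122630272), had B6 shares of 78.9, 79.9 and 79% in the forward and 78.4, 77.6, 77.6, 79.5 and 80.5% in the reverse embryos, from 33324 B6 and 8922 cast reads. The means were 79.3% ± 0.55 (SD, n = 3) in forward embryos and 78.7% ± 1.3 (SD, n = 5) in reverse embryos (log2 fold change 1.59, SE 0.31, edgeR adjusted p = 0.001). Crxos, an early embryonic homeobox gene, had 88.6% ± 0.75 (SD, n = 3) in forward embryos and 87.8% ± 1.2 (SD, n = 5) in reverse embryos (log2 fold change 2.59, SE 0.26, edgeR adjusted p = 1.4e-07). Ftl1, the light chain of the iron store ferritin, was the most heavily read of the genes on the B6 side in all 8 embryos, with 99, 99.2 and 98.6% and 99.7, 98.9, 98.9, 99.2 and 99.2%. Rpl4, a protein of the large ribosomal subunit, was the mildest, with 69.2% ± 1.3 (SD, n = 3) in forward embryos and 68% ± 1.0 (SD, n = 5) in reverse embryos (log2 fold change 0.80, SE 0.25, edgeR adjusted p = 0.042), but leaving out any of the 3 forward embryos, or reverse replicate 5, ended its call. With the embryo term, over all 8 embryos, the edgeR adjusted p of Rpl4 was 3.2e-10. Among 1609 genes with at least 100 reads in every embryo, the SD of the B6 share over the 8 embryos had a median of 6.12 points.

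Spp1, the secreted phosphoprotein osteopontin (chr5:104435118-104441050), had B6 shares of 97.4, 97.5 and 98% with a B6 mother and 99.9, 100, 99.8, 100 and 99.8% with a cast mother. The groups did not overlap, both lay far toward B6 (log2 fold change 7.10, SE 0.67, edgeR adjusted p = 5.6e-08), and the parent term was called as well, at a maternal over paternal log2 fold change of -2.05 with an edgeR adjusted p of 0.088.

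Toward cast, the most heavily read gene with a share below 50% in all 8 embryos was Folr1, a folate receptor (chr7:101858331-101870788). It had B6 shares of 36.6, 40 and 39% and 39.3, 37, 40.7, 36.9 and 38.7% (log2 fold change -0.99, SE 0.35, edgeR adjusted p = 0.069). All 8 embryos were at 40.7% or below, but without the embryo term the call was lost when any of 6 embryos was left out. With that term, over all 8 embryos, the edgeR adjusted p of Folr1 was 2.0e-10. Fxyd4, a regulator of the sodium pump, had 2.38% to 14.7%, median 7.89% (log2 fold change -3.70, SE 0.34, edgeR adjusted p = 3.0e-08). Mrpl17, of the mitochondrial ribosome, had 35.8% ± 3.9 (SD, n = 3) in forward embryos and 40% ± 2.7 (SD, n = 5) in reverse embryos (log2 fold change -1.02, SE 0.30, edgeR adjusted p = 0.027), and Snhg3, a host gene of small nucleolar RNAs, had 32.4% to 49.9%, median 41.8% (log2 fold change -0.87, SE 0.27, edgeR adjusted p = 0.042). The calls of Mrpl17 and Snhg3 were lost without forward replicate 2 or 3, and that of Snhg3 also without forward replicate 1. With the embryo term, over all 8 embryos, the edgeR adjusted p was 2.7e-09 for Mrpl17 and 2.1e-06 for Snhg3. When the alleles of an embryo shared a library size, Folr1, Mrpl17 and Snhg3 were not called (edgeR adjusted p = 0.22, 0.13 and 0.22).

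**Figure D3:**
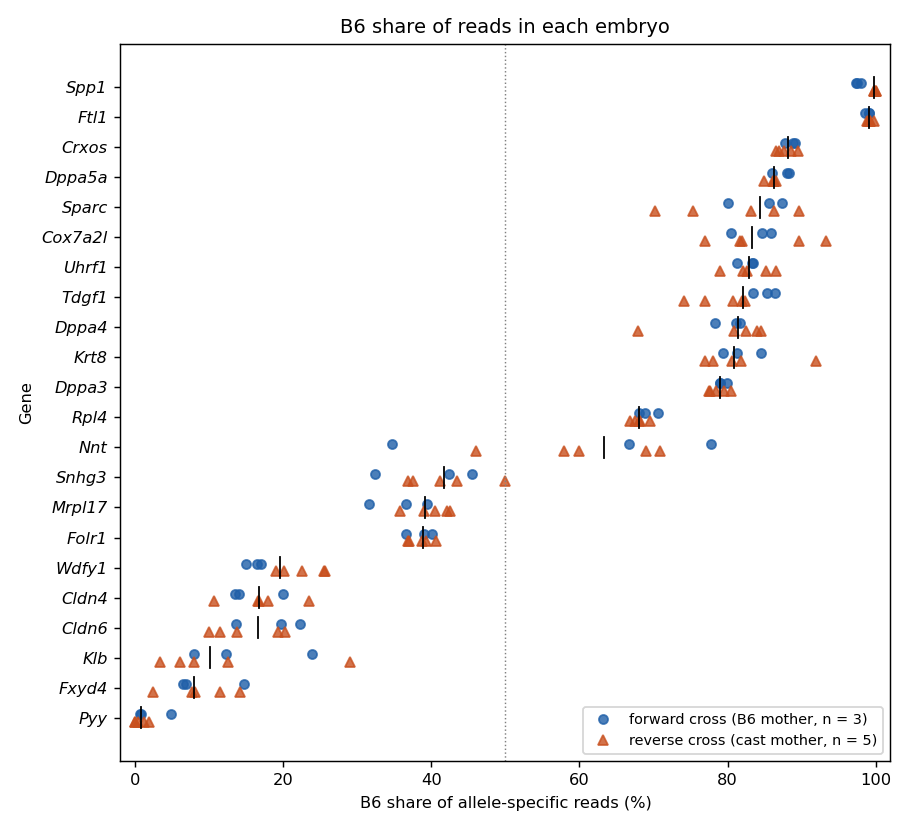
The B6 share of reads (x axis, percent) is plotted for 22 genes described in the text (y axis), with circles for the 3 forward embryos, triangles for the 5 reverse embryos and a bar at the median of all 8. Dppa3, Crxos, Ftl1 and Folr1 vary little between embryos, and Nnt, which was not called, lies on both sides of the dotted line at 50%.

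In each of 3 lineage lists the called share was above the 15.5% of all tested genes. In these and the following lists, the largest are meant among called members with at least 20 reads in each embryo. Of 40 tested trophectoderm genes, 11 were called (6 toward B6 and 5 toward cast), and 22 with the embryo term, under which 25.5% of all genes passed. The median log2 fold change was -0.05 over the tested members and 0.06 over all genes. The trophectoderm is the outer epithelium that will form placenta. Its tight-junction claudins lay toward cast: Cldn4 had B6 shares of 19.9, 14 and 13.4% and 23.5, 16.6, 10.6, 16.8 and 17.9% (log2 fold change -2.78, SE 0.49, edgeR adjusted p = 3.0e-04), and Cldn6 had 10% to 22.3%, median 16.5% (log2 fold change -2.50, SE 0.47, edgeR adjusted p = 6.9e-04). Krt8, the simple-epithelium keratin, lay toward B6 at 84.6, 81.2 and 79.4% and 91.9, 81.9, 78, 77 and 80.6% (log2 fold change 1.73, SE 0.44, edgeR adjusted p = 0.0095). The call of Krt8 was lost in the reverse cross alone. Aqp3, a water and glycerol channel, was also called toward B6 (log2 fold change 1.66, SE 0.47, edgeR adjusted p = 0.02), but its share was 45.9% in forward replicate 3. Its call was lost without forward replicate 1 or 2 and in the forward cross alone. The 10 cell type markers of this lineage held 3 calls, Krt8, Id2 and Tfap2c. Tfap2c (log2 fold change 0.97, SE 0.37, edgeR adjusted p = 0.098) lost its call when any embryo other than reverse replicate 1 was left out, and Id2 (log2 fold change 0.80, SE 0.25, edgeR adjusted p = 0.037) when any of 3 was. With the embryo term, over all embryos, the edgeR adjusted p was 0.0079 for Tfap2c and 0.0070 for Id2. Cdx2, the defining transcription factor, had 60 B6 and 88 cast reads and was not called, with a log2 fold change of -0.76 ± 0.54 (SE).

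Among 31 tested epiblast and pluripotency genes, 11 were called, 7 toward B6 and 4 toward cast, and 15 with the embryo term, and their median log2 fold change was 0.19. Beside Spp1 the largest were Dppa5a, an RNA-binding protein of pluripotent cells, Tdgf1, the Nodal co-receptor also called Cripto, and Dppa4, a chromatin factor of early embryos. Dppa5a had 87.5% ± 1.3 (SD, n = 3) in forward embryos and 86% ± 0.67 (SD, n = 5) in reverse embryos (log2 fold change 2.37, SE 0.38, edgeR adjusted p = 1.2e-04), Tdgf1 had 85% ± 1.5 (SD, n = 3) in forward embryos and 79.2% ± 3.6 (SD, n = 5) in reverse embryos (log2 fold change 1.92, SE 0.28, edgeR adjusted p = 3.9e-05) and Dppa4 had 80.4% ± 1.8 (SD, n = 3) in forward embryos and 79.9% ± 6.8 (SD, n = 5) in reverse embryos (log2 fold change 1.72, SE 0.22, edgeR adjusted p = 7.6e-06). All 8 embryos were above 67% for each. These 3 genes have 7, 2 and 2 near-identical annotated copies elsewhere in the genome, Spp1 has 0. The pluripotency factors Nanog (596 B6 and 347 cast reads, log2 fold change 0.59 ± 0.38) and Pou5f1 (52 and 22 reads, 0.85 ± 0.73) were not called.

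Of 31 tested primitive endoderm genes, 9 were called, 6 toward B6 and 3 toward cast, and 16 with the embryo term, with a median log2 fold change of 0.12. Several handle basement membrane and collagen, which this lineage secretes. P4ha2, a collagen prolyl hydroxylase, had B6 shares of 78, 84.6 and 77.7% with a B6 mother and 100, 97.1, 97.6, 98.9 and 100% with a cast mother (log2 fold change 3.28, SE 0.67, edgeR adjusted p = 0.0016). Serpinh1, the collagen chaperone, had 80% to 100%, median 95.9% (log2 fold change 3.39, SE 0.59, edgeR adjusted p = 2.9e-04), and Sparc, a matrix glycoprotein, had 84.3% ± 3.9 (SD, n = 3) in forward embryos and 80.9% ± 8.0 (SD, n = 5) in reverse embryos (log2 fold change 1.83, SE 0.55, edgeR adjusted p = 0.032), a call lost without forward replicate 1 and in the reverse cross alone. Klb, the beta-Klotho co-receptor of fibroblast growth factors, lay toward cast, at 3.33% to 29%, median 10.1% (log2 fold change -2.73, SE 0.52, edgeR adjusted p = 8.7e-04). The transcription factors of the lineage were not called: Gata6 had a log2 fold change of -0.49 ± 0.30 (adjusted p 0.36, and 0.066 with the embryo term) and Sox17 of 0.45 ± 0.62. Tbx3, a T-box factor of early embryos chosen after its values were seen, lay toward cast with its antisense neighbour Tbx3os1, at mean B6 shares of 39.4% ± 1.6 (SD, n = 3) in forward embryos and 36.7% ± 8.9 (SD, n = 5) in reverse embryos for Tbx3 (edgeR adjusted p = 0.0092) and of 16.8% ± 6.9 (SD, n = 3) in forward embryos and 33.4% ± 5.4 (SD, n = 5) in reverse embryos for Tbx3os1 (edgeR adjusted p = 2.8e-05). They overlap, and without strand their shared reads cannot be told apart.

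Of 43 tested Polycomb and DNA methylation genes, 3 were called (6.98%, against 15.5% of all genes), 2 toward B6 and 1 toward cast, or 11 (25.6%, against 25.5%) with the embryo term, and the median log2 fold change was -0.22. Uhrf1, which recruits the maintenance DNA methyltransferase, had 82.7% ± 1.3 (SD, n = 3) in forward embryos and 83.1% ± 2.9 (SD, n = 5) in reverse embryos (log2 fold change 1.92, SE 0.24, edgeR adjusted p = 4.7e-06). Mbd3, of the NuRD complex, lay toward cast at 33.3% to 48.8%, median 43.3% (log2 fold change -0.78, SE 0.28, edgeR adjusted p = 0.076), a call lost when any of 6 embryos was left out or the library size was shared. Of 118 cell cycle and replication genes, 11 were called (9.32%; 7 toward B6 and 4 toward cast), or 32 (27.1%) with the embryo term, around a median of -0.03. They included Pcna, the sliding clamp of replication (log2 fold change 3.67, SE 0.41, edgeR adjusted p = 8.0e-07), Ccnb1, the mitotic cyclin B1 (log2 fold change 2.25, SE 0.32, edgeR adjusted p = 2.7e-05), and Pole4, a small subunit of DNA polymerase epsilon (log2 fold change 1.97, SE 0.35, edgeR adjusted p = 3.5e-04). Rpa1, which binds single-stranded DNA, lay toward cast in all 8 embryos, at 28.1% to 48%, median 36.5% (log2 fold change -1.06, SE 0.25, edgeR adjusted p = 0.0054). The call of Rpa1 was lost in the reverse cross alone.

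Cytoplasmic ribosomal proteins had a called share of 35.4%, 28 of 79, against 15.5% of all genes, with 26 toward B6 and 2 toward cast and a median log2 fold change of 0.27. The largest were Rplp0 of the ribosomal stalk (log2 fold change 7.73, SE 0.43, edgeR adjusted p = 8.4e-12), Rpl14 (log2 fold change 7.66, SE 0.49, edgeR adjusted p = 6.3e-11), Rps2 (log2 fold change 6.45, SE 0.27, edgeR adjusted p = 1.9e-13) and Rps3a1 (log2 fold change 6.31, SE 0.37, edgeR adjusted p = 1.9e-11). Their B6 shares were above 97% in every embryo. In this list 68 of the 79 tested genes have at least 1 near-identical annotated copy, as do 23 of the 26 called toward B6.

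Of 80 tested oxidative phosphorylation genes, 10 were called (12.5%, against 15.5% of all genes), 9 toward B6 and 1 toward cast, or 34 (42.5%, against 25.5%) with the embryo term, and the median log2 fold change was -0.02. Their median was 3155.5 reads, against 309 over all genes. In the fifth of all tested genes with the most reads, 42.9% were called with that term. Cox5b, a subunit of cytochrome c oxidase, had B6 shares of 98.5, 99.1 and 99% and 99.6, 98, 98.7, 98.4 and 98.5% (log2 fold change 5.94, SE 0.39, edgeR adjusted p = 7.2e-11). Cox6c, of the same enzyme and without an annotated near-identical copy, had 91.1% ± 0.60 (SD, n = 3) in forward embryos and 90.8% ± 1.6 (SD, n = 5) in reverse embryos (log2 fold change 3.00, SE 0.23, edgeR adjusted p = 1.2e-09). Atp5h of the ATP synthase (log2 fold change 5.11, SE 0.38, edgeR adjusted p = 1.1e-09) and Ndufs5 of complex I (log2 fold change 3.66, SE 0.27, edgeR adjusted p = 7.2e-10) followed.

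Of 47 glycolysis and TCA cycle genes, 9 were called (19.1%), 7 toward B6 and 2 toward cast, or 21 (44.7%) with the embryo term, with a median of 0.02. Gapdh (log2 fold change 5.46, SE 0.52, edgeR adjusted p = 7.1e-08), the enolase Eno1 (log2 fold change 5.35, SE 0.47, edgeR adjusted p = 2.0e-08) and the isomerase Gpi1 (log2 fold change 2.73, SE 0.36, edgeR adjusted p = 9.9e-06) lay toward B6, with 195, 8 and 1 near-identical copies. Ldha, lactate dehydrogenase A with 18 copies, lay toward cast at 0% to 43.7%, median 20.6% (log2 fold change -2.27, SE 0.58, edgeR adjusted p = 0.01), a call lost without forward replicate 3 and in the reverse cross alone.

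Of 42 tested proteasome genes, 6 were called (14.3%, against 15.5% of all genes), each toward B6, the direction of 71.3% of all calls. With the embryo term 16 were called (38.1%, against 25.5%), and the median log2 fold change of the list was -0.12. The core particle subunits Psmb3 (log2 fold change 5.18, SE 0.43, edgeR adjusted p = 7.7e-09), Psma4 (log2 fold change 5.00, SE 0.39, edgeR adjusted p = 1.9e-09) and Psma5 (log2 fold change 2.46, SE 0.48, edgeR adjusted p = 9.3e-04) and the base subunit Psmd2 (log2 fold change 3.62, SE 0.38, edgeR adjusted p = 3.1e-07) were the largest. Of the 6 genes, 5 have a near-identical copy. In Psma5 the share was 47.4% in replicate 1 of the reverse cross and 83.7% to 98.8% in the other 7 embryos. Splicing genes held 9 calls of 100 tested, below the 15.5% of all genes, 7 toward B6 and 2 toward cast (24 with the embryo term), around a median of -0.03. The largest were Snrpf (log2 fold change 4.44, SE 0.43, edgeR adjusted p = 7.9e-08), Srsf3 (log2 fold change 3.62, SE 0.39, edgeR adjusted p = 5.3e-07), Eif4a3 (log2 fold change 2.30, SE 0.35, edgeR adjusted p = 5.0e-05) and Srsf10 (log2 fold change 1.56, SE 0.34, edgeR adjusted p = 0.0025), all toward B6.

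Lysosomal genes held 13 calls of 65 tested (20%, against 15.5% of all genes), 12 toward B6 and 1 toward cast, or 23 (35.4%, against 25.5%) with the embryo term, with a median log2 fold change of -0.02. Atp6v1g1, of the proton pump (log2 fold change 4.04, SE 0.39, edgeR adjusted p = 7.1e-08), and Ostm1, a partner of the chloride exchanger ClC-7 (log2 fold change 2.49, SE 0.31, edgeR adjusted p = 3.6e-06), had shares above 80% in every embryo. Ctsc, cathepsin C, had 92.5% ± 6.1 (SD, n = 3) in forward embryos and 70.7% ± 13 (SD, n = 5) in reverse embryos (log2 fold change 1.78, SE 0.47, edgeR adjusted p = 0.014). It was not called in the reverse cross alone, nor for the parent term (edgeR adjusted p = 0.46).

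Of 210 tested solute carriers 34 were called (16.2%), 23 toward B6 and 11 toward cast, or 62 with the embryo term, and their median log2 fold change was 0.03. Slc22a27, of the organic anion transporter family, had 607 B6 and 2 cast reads. Slc28a3, a concentrative nucleoside transporter like the cast-leaning Slc28a1 above, lay on the opposite side at 81.3% to 97.7%, median 93.8% (log2 fold change 3.02, SE 0.42, edgeR adjusted p = 1.7e-05). Slc37a1, a sugar-phosphate transporter, lay toward cast at 4.50% to 44.3%, median 32.8% (log2 fold change -1.68, SE 0.33, edgeR adjusted p = 0.0011).

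Glutathione and detoxification genes held 10 calls of 56 (17.9%), 6 toward B6 and 4 toward cast, or 22 with the embryo term, and a median of 0.08. Akr1b3, the aldose reductase (log2 fold change 5.55, SE 0.52, edgeR adjusted p = 4.2e-08), the glutathione transferase Gstp2 (log2 fold change 5.16, SE 0.59, edgeR adjusted p = 1.1e-06) and the peroxidase Prdx2 (log2 fold change 3.69, SE 0.31, edgeR adjusted p = 9.6e-09) were above 92% from B6 in every embryo. Pon2, a lactonase, was called (log2 fold change 1.59, SE 0.51, edgeR adjusted p = 0.044) although its share ranged from 15.8% in replicate 1 of the reverse cross to 96.9%, and the call was lost when any of 4 embryos was left out. The neighbours of Akr1b3 were chosen after their values were seen: Akr1b8 had 72.2% to 85.8%, median 75.5% (log2 fold change 1.41, SE 0.37, edgeR adjusted p = 0.014) and Akr1b10 had 525 B6 and 3 cast reads. Cholesterol synthesis held 3 calls of 33 tested (9.09%, against 15.5% of all genes), 1 toward B6 and 2 toward cast (10 with the embryo term) around a median of -0.03. The first was Pmvk, phosphomevalonate kinase, at 88.8% ± 5.1 (SD, n = 3) in forward embryos and 88.3% ± 2.4 (SD, n = 5) in reverse embryos (log2 fold change 2.72, SE 0.39, edgeR adjusted p = 2.6e-05).

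Immune genes had few reads. Of 20 tested genes of antigen presentation, 4 were called (20%, against 15.5% of all genes), 2 in each direction, around a median of 0.23. B2m, the light chain of class I molecules, lay toward cast at 11.4% to 43%, median 30.3% (log2 fold change -1.57, SE 0.47, edgeR adjusted p = 0.032), a call lost without forward replicate 2 or 3. Of 22 tested interferon-inducible genes, 6 were called (27.3%, against 15.5% of all genes), 5 toward B6 and 1 toward cast, and none with at least 20 reads in each embryo. Their median log2 fold change was 0.63, at a median of 91.5 reads. Over all tested genes that median was 0.70 at 10 to 76 reads and 0.16 at 77 to 197 reads. Ifitm2, an antiviral membrane protein chosen after its values were seen, had 1040 B6 reads and 1 cast read. It has 5 near-identical copies, and reverse replicate 1 had only 6 of its reads. Lyz2, the macrophage lysozyme listed as a leukocyte marker, was called toward B6 (log2 fold change 5.55, SE 1.14, edgeR adjusted p = 0.0017), with 1055, 38 and 39 B6 reads in the forward embryos and 0, 0, 0, 0 and 1 in the reverse embryos. Its cast reads in the reverse embryos were 3, 0, 2, 5 and 2, so the call rests on the forward cross. It was lost without forward replicate 1 and with the embryo term (edgeR adjusted p = 0.49), and the parent term was called at an adjusted p of 0.0012. The 4 leukocyte markers summed to 3 to 1092 reads per embryo, and none had reads in every embryo.

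Of 258 tested zinc finger genes named Zfp, 27 were called (10.5%), 23 toward B6 and 4 toward cast, or 41 with the embryo term, and the median log2 fold change was 0.25. Zfp780b (log2 fold change 4.08, SE 0.65, edgeR adjusted p = 9.5e-05), Zfp808 (log2 fold change 1.93, SE 0.35, edgeR adjusted p = 4.5e-04), Zfp33b (log2 fold change 1.78, SE 0.42, edgeR adjusted p = 0.0054) and Zfp7 (log2 fold change 1.73, SE 0.29, edgeR adjusted p = 1.6e-04) were the largest with at least 20 reads in each embryo. Their shares were above 50% from B6 in all 8 embryos.

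A list of genes with allele differences described for B6 mice held 3 that were tested, of which 2 were called. Wdfy1, an adaptor of Toll-like receptor signalling (chr1:79702262-79776143), lay toward cast with B6 shares of 16.4, 17 and 15% and 20, 22.5, 25.6, 19.1 and 25.6% (log2 fold change -2.41, SE 0.26, edgeR adjusted p = 4.8e-07). Cox7a2l, which assembles respiratory supercomplexes and is shortened in B6 mice, lay toward B6 at 80.5, 85.8 and 84.7% and 93.2, 89.7, 81.7, 77 and 81.9% (log2 fold change 2.03, SE 0.32, edgeR adjusted p = 8.1e-05). Nnt, the mitochondrial transhydrogenase that is partly deleted in the C57BL/6J substrain, had 167 B6 reads of 290 in all and was not called (log2 fold change 0.17, SE 0.54, edgeR adjusted p = 0.91). The substrain of these B6 mice was not given in the sources used here.

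**Figure D4:**
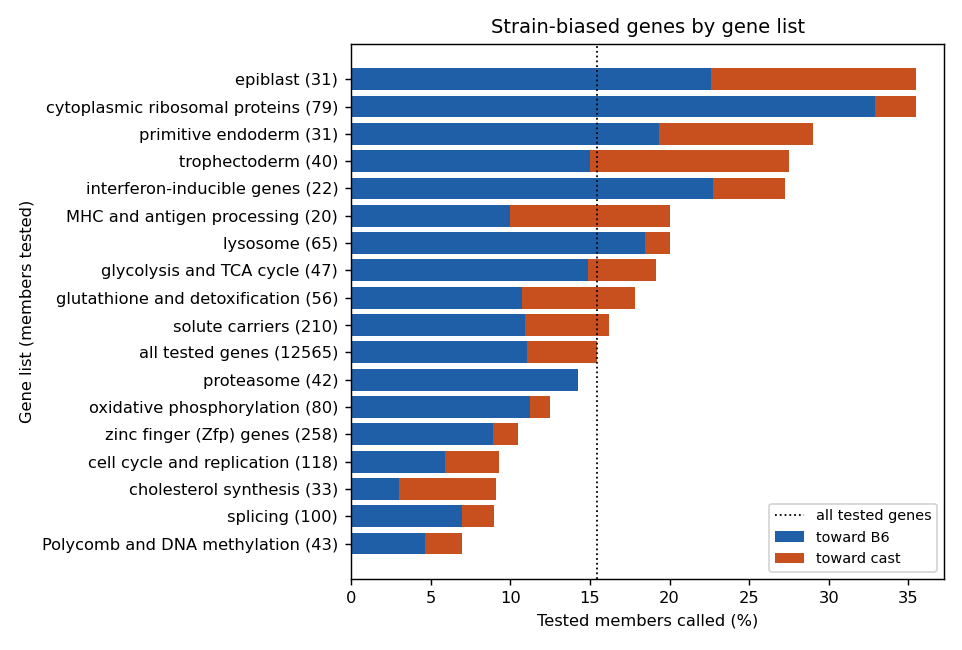
Bars give the percentage of tested members called toward B6 (blue) and toward cast (orange) in each gene list, with the number of members tested in brackets. The dotted line marks all tested genes (15.5%), and the ribosomal protein and epiblast lists reach 35.4% and 35.5%.

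Strain-biased genes stood beside each other along the chromosomes in some places. Of 412 neighbouring pairs of tested genes that were both called, 309 (75.0%) had the same direction, as did 213 of the 308 pairs that do not overlap (69.2%). Pairs drawn with the directions of all calls would give 59.0%. There were 32 runs of at least 3 neighbours toward B6 and 9 toward cast. A run of 6 toward B6 on chr11:53983123-54364756 held the ergothioneine transporter Slc22a4, Pdlim4, P4ha2, 4933405E24Rik, Gm12223 and Acsl6, which activates long-chain fatty acids. The B6 shares of Slc22a4 were 92.8, 67.7 and 60.9% in the forward and 100, 100, 97.7, 100 and 100% in the reverse embryos, and its call was lost without forward replicate 1 or reverse replicate 3. In 4933405E24Rik all 175 reads of the 8 embryos were B6, at least 58.3-fold, and the log2 fold changes of the other 5 genes ran from 1.24 for Acsl6 to 3.51 for Gm12223. The calls of Slc22a4 and Acsl6 were lost in the forward cross alone.

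A further run of 6, on chr12:19606929-20921262, held Gm9257, Gm38702, LOC108167368, Gm6626, 1700030C10Rik and 3110053B16Rik, with log2 fold changes of 1.16 to 3.22. The call of Gm9257 was lost without forward replicate 1 and in the reverse cross alone, and that of LOC108167368 in the forward cross alone. Gm9257 and 3110053B16Rik have 39 and 47 near-identical copies. Among the runs of 5 the one with the most reads, chr10:93453411-93747207, held Lta4h, which makes leukotriene B4, Hal, the histidine ammonia-lyase, Snrpf, 4933408J17Rik and Ntn4, a netrin. Snrpf (1399 B6 and 53 cast reads) and 4933408J17Rik (1387 and 44) overlap on opposite strands, and their counts were close in size. Ntn4 had 0% in replicate 3 of the reverse cross, and its call was lost when any of 6 embryos was left out.

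The runs toward cast held 3 genes each. By reads, the first were Mrpl11, Slc29a2 and B4gat1 on chr19:4962147-5041131, Ptpn18, Cfc1 and Prss40 on chr1:34459762-34560943, and Xkr6, Gm38524 and Pinx1 on chr14:63606503-63919859. Cfc1, a Nodal co-receptor related to Tdgf1, had 247 B6 and 548 cast reads, and the overlapping protease gene Prss40 had 260 and 553, so at most 2 of those 3 genes are separate measurements. Gm38524 lies within Xkr6, so these genes may share reads as well. Ptpn18, a protein tyrosine phosphatase, had a B6 share of 0% to 35%, median 9.39% (log2 fold change -2.82, SE 0.66, edgeR adjusted p = 0.0054). Without at least 1 of the embryos the calls of Mrpl11, Slc29a2, B4gat1, Xkr6, Gm38524 and Pinx1 were lost, as were those of Mrpl11, Slc29a2 and Pinx1 with a shared library size. By chromosome, the called share ran from 12.6% on chromosome 19 to 20.1% on chromosome 15.

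The share of calls toward B6 was higher among genes with near-identical copies. A copy was counted where at least 90% identity over at least 50% of a transcript was found at another annotated place in GRCm38. Of 10461 tested genes without a copy, 9.22% were called toward B6 and 4.50% toward cast. Of 594 genes with 1 copy the shares were 18.2% and 3.37%, and of 185 genes with 5 or more they were 43.2% and 2.70%. Among well-covered genes called toward B6, 42 of 78 with a pooled B6 share of at least 95% had a copy (53.8%), as did 27.6% of 445 with a lower share and 16 of 295 called toward cast (5.42%). Rplp0, Gapdh, Eef1a1 and Ftl1, with 8, 195, 13 and 8 copies, were among the genes with a share of at least 95%. Further named genes with copies include Akr1b3, Psmb3 and Rpl37rt (7 each), Crxos, Atp5h and the cast-leaning Rpl28 (6 each), Ccnb1 (5) and Dppa3 (2). The part of copies in these B6 shares was not tested, and Myo7a, Cox6c, Krt8, Cox7a2l, Uhrf1 and Spp1, which have no annotated copy, were also called toward B6.

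**Figure D5:**
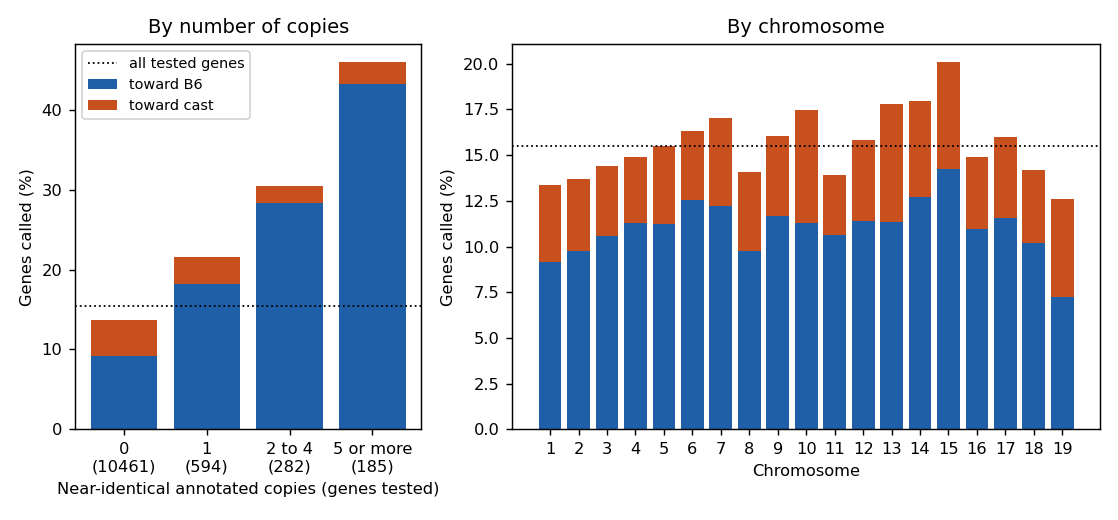
The left panel gives the percentage of genes called toward B6 (blue) and toward cast (orange) by number of near-identical annotated copies, with genes tested in brackets, and the right panel gives the same by chromosome. The blue part grows from 9.22% of genes without a copy to 43.2% of genes with 5 or more, while the chromosomes lie between 12.6% and 20.1% in all.

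Read depth and gene type also moved with the calls. When genes were ranked by reads and cut into 5 equal groups, 13.7% of the lowest group (10 to 76 reads over all embryos) were called toward B6 and 3.29% toward cast, with a median log2 fold change of 0.70 over all its genes. In the group with the most reads (1047 or more) the shares were 12.3% and 5.09%, and the median was -0.05. With the embryo term, 11.7% of the lowest and 42.9% of the highest group were called. The 25.5% of all genes is therefore not a rate at equal depth for lists with more reads. The median member had 1120 reads in the glycolysis and TCA cycle list, 1892 in the proteasome and 1038 in the lysosome list. In the trophectoderm, epiblast and primitive endoderm lists it had 1369, 1020 and 841 reads, and over all genes 309. Long noncoding RNAs were called in 21.7% of 1556 genes (251 toward B6 and 87 toward cast) and pseudogenes in 35.6% of 101 (29 and 7), against 14.4% of 10868 protein-coding genes (1102 and 463). Their part in the result was not tested.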

How the data were processed

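Single E3.5 blastocysts were sequenced with SMART-Seq2. According to the authors, the deposited counts are SNP-covering reads per gene, embryo and strain, made by STAR alignment to mm10 (a B6-derived genome), removal of reads mapping to several places, and Allelome.Pro, without normalization. The submitters' processing notes name STAR 2.5.2b, SAMtools 1.9-92 and bedtools. Whether counting used strand was not given in the sources used here. The authors removed other reverse embryos, leaving 1, 2, 3, 5 and 7.

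From these counts, B6 and cast libraries (16 in all, of 8 embryos) were scaled by TMM and fitted with strain and parent of the allele in edgeR 4.0.16 (limma 3.58.1, R 4.3.3; quasi-likelihood, Benjamini-Hochberg), without an embryo term. The alternatives included that term, DESeq2 1.42.0 and single crosses. Fits that left out an embryo and fits of single crosses had no embryo term. Alleles of an embryo deviated together (r = 0.13 to 0.66 over 6182 genes), so the pairing is real. The test was tried on simulated data with unpaired alleles and few changed genes, where 8.14% of 86 calls were false. That rate need not hold for the real data. Chromosomes came from GENCODE M21 (18286 genes) or RefSeq (2999, and 412 by synonym), and 1113 genes matched neither. They held 0.816% of reads. Near-identical copies were sought with BLAST 2.17.0 among transcripts of 200 bases or more, for 11522 tested genes.

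Named genes had at least 20 reads in each embryo, a call, and the same side of 50% in all 8: the 10 largest and 5 most read per strain. Up to 4 called members per list needed only the 20 reads, and up to 3 runs per strain were taken, ties broken by reads. One gene of the lists that the rule would name is not reported here. Members and lists were chosen with earlier results of these data known. P-values of the fits without an embryo term measure the spread between the allele libraries of these embryos, with the alleles of an embryo treated as unpaired. Those with the embryo term rest on the difference between the alleles within each embryo.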

Additional observations from a re-analysis of the deposited data

Results flagged for a closer look

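In 98 named genes the B6 shares of the 5 reverse embryos were checked for a single embryo far from the others, a check that chance fails in about 1 of 20 groups, and 18 genes were picked out. In 10 of them the embryo was replicate 1, which also stood apart across the well-covered genes. Its share was the lowest for Ndufs5 (83.1%), Eno1 (94.4%), Psmb3 (89.4%), Psma4 (86.9%), Psma5 (47.4%), Eif4a3 (74.4%), Srsf10 (69.6%), Ccnb1 (64.3%) and Dppa4 (68.0%), and the highest for Slc28a1 (31.6%).

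In the remaining genes, replicate 3 had the lowest share for Dppa5a (84.9%) and Serpinh1 (88.7%), and replicate 2 had the highest for Tmem141 (13.6%). In Hist1h2ac (99.9%), Rpl37rt (98.9%), Tspan12 (99.5%), Tma7 (99.6%) and Wdr83os (99.4%) the other 4 reverse embryos were at 100% and a few cast reads made the difference. The strain difference of Spp1 differed between the crosses, with a parent term of -2.05 on the log2 scale (edgeR adjusted p = 0.088).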

How the results depend on the processing

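The replicate block, that is, a term for each embryo that pairs its alleles, gave 3207 strain-biased genes in place of 1945, 1218 toward cast, and 198 with a parent term in place of 47, and 1747 of the 1945 genes (89.8%) kept their call and direction. With a shared library size per embryo, 2291 genes lay toward B6 and 329 toward cast. At an adjusted p of at most 0.05, 352 lay toward cast. With 10 reads required in every embryo, 1068 genes passed, 702 toward B6, 366 toward cast and 18 with a parent term. The parent term was called in 115 of the strain-biased genes under edgeR's current dispersion estimate and in 152 with no read filter, and DESeq2 called 2187 strain-biased genes. Alternatives chosen after seeing the data kept fewer genes: 837 calls (588 toward B6, 249 toward cast, 16 with a parent term) among genes that overlap no other gene, 1128 (750 toward B6) among those with at least 200 reads, and 898 toward B6 among those without a near-identical copy. Leaving out each embryo in turn gave 1206 to 2453 strain-biased genes, 918 to 1630 toward B6, 288 to 823 toward cast and 21 to 56 with a parent term. Of 125 named genes, 95 kept their direction and their status, called or not called, under every one of the 25 alternatives that covered them. These 95 include Cdx2, Pou5f1, Nanog and Sox17, which were called in no fit. Losses of a call in 1 cross alone are given in the text for some of the named genes only. Lyz2 reversed to -3.18 in the reverse cross alone, and Nnt, which was not called, ranged from -0.037 without forward replicate 2 to 0.49 without forward replicate 1 when each embryo was left out, and was 0.51 with a shared library size. The cause of these changes was not tested, except that fewer genes or embryos entered where the alternative says so.

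On simulated counts for 11495 genes, small differences were often not found: a 2-fold difference was found in 10.9% of changed genes and an 8-fold one in 87.2%. The simulation drew the alleles of an embryo independently and changed few genes. It gave 86 calls, against 1945 of 12565 genes in the data, so its rates need not hold for the data. Reads without molecular identifiers are not independent molecules, so counting intervals and floors cover counting error only. The labels do not say whether embryos of a cross shared a litter. Genes with copies or overlapping neighbours may share reads, and reads were aligned to a B6-derived genome. Neither effect was measured here.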
